A study of Mus musculus with 31 samples.

Results

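The genes followed here encode the subunits of the 5 oxidative phosphorylation complexes of the mitochondrial inner membrane. Members were all genes whose symbol on the array begins with Nduf, Uqcr, Cox4i, Cox5, Cox6, Cox7, Cox8 or Atp5, together with Sdha, Sdhb, Sdhc and Sdhd; the Ndufaf assembly factors were left out. Of the 18194 genes measured, 82 were members, with 36 in complex I, 4 in complex II, 8 in complex III, 17 in complex IV and 17 in complex V. Ndufa4 is counted with complex I by its name, although it is now known as a subunit of complex IV. A further 8 symbols, among them Ndufa11 and Ndufs6, lie only on probe sets that carry several symbols and were not counted.

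Transcripts were read on 31 Affymetrix arrays. They held RNA of induced pluripotent stem cells of the mouse (iPSCs, body cells returned to an embryo-like state) or of embryoid bodies, the aggregates in which such cells differentiate. The 4 groups were Nos3-/- embryoid bodies at day 11 (6 arrays), control embryoid bodies at day 11 (9 arrays), Nos3-/- iPSCs at day 0 (6 arrays) and control iPSCs at day 0 (10 arrays). Nos3 encodes endothelial nitric oxide synthase. Nos3-/- cells came from B6.129P2-Nos3tm1unc/J mice and control cells from CD1 mice, so genotype and strain cannot be told apart in any comparison. All lines were made from tail-tip fibroblasts of adult males with Sendai virus. In every group the pluripotent cells had been kept on inactive mouse embryonic fibroblasts (feeder cells), whose RNA could enter the day 0 arrays, and they were then aggregated in AggreWell plates without directed differentiation. The labels do not say whether arrays of a group came from separate clones or cultures, so the p-values here weigh differences against a spread among arrays that could be technical in origin.

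Complex I takes electrons from NADH, complex II from succinate, complex III passes them to cytochrome c, and complex IV (cytochrome c oxidase) gives them to oxygen. The proton gradient this builds drives complex V, the ATP synthase. Nitric oxide is known to bind the oxygen site of cytochrome c oxidase and to slow respiration reversibly, which is the textbook link between Nos3 and these complexes. Several complex IV subunits exist as pairs of isoforms, one broadly expressed and one typical of heart and skeletal muscle, testis or lung.

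Promoter sequences are shown for members on which the results below turn: Ndufb11 and Ndufs8, whose change over time differed between the genotypes, Uqcr10, whose probe sets differed most between the genotypes, the isoform pair Cox6b2 and Cox6b1, and a pair of complex V members with matches to factors known for respiratory genes. Each line gives the 250 bases before the start of the gene from RefSeq (GRCm38.p6), 5′ to 3′ on the gene's strand. Capitals mark exact matches, on either strand, to GCATGCGC (the core of the nuclear respiratory factor NRF1), CGGAAG (the core of ETS factors such as GABP), AAGATGG (YY1) and GGGCGG (SP1). The windows lie at chrX:20617620-20617869 (Ndufb11), chr19:3912775-3913024 (Ndufs8), chr11:4704345-4704594 (Uqcr10), chr7:4753095-4753344 (Cox6b2), chr7:30626115-30626364 (Cox6b1), chr19:47090648-47090897 (Atp5md) and chr9:44920743-44920992 (Atp5l), all on the minus strand.
Ndufb11: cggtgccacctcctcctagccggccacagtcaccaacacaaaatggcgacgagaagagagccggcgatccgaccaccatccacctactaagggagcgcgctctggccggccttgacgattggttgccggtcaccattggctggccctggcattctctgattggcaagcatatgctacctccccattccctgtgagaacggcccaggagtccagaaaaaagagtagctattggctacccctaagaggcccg
Ndufs8: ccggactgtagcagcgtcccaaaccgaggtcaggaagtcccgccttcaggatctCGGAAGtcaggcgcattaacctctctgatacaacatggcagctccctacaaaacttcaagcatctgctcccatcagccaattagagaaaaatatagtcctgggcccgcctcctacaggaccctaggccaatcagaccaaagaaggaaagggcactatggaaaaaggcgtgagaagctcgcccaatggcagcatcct
Uqcr10: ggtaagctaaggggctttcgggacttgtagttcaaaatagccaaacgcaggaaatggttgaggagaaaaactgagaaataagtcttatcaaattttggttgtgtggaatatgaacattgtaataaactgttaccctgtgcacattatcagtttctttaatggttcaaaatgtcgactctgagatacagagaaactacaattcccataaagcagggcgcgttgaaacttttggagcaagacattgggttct
Cox6b2: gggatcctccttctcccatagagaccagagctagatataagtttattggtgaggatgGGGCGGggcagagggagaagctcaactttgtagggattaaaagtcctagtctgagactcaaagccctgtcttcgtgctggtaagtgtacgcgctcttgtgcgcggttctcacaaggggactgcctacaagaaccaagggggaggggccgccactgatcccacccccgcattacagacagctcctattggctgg
Cox6b1: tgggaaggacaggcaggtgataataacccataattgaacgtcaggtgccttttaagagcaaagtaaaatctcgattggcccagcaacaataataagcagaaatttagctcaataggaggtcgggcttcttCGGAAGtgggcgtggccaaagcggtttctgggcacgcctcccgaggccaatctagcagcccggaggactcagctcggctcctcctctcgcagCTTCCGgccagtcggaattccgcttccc
Atp5md: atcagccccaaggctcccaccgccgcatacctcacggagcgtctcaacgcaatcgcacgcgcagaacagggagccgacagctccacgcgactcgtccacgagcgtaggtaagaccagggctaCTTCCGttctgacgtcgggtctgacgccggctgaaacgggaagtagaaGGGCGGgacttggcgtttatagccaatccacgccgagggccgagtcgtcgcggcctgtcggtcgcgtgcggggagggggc
Atp5l: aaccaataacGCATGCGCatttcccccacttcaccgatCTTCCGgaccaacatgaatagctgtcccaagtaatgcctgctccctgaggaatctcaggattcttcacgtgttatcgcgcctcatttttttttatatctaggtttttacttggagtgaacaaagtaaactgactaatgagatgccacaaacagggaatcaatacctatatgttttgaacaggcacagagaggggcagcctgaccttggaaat
Ndufs8 held 1 ETS match and Cox6b1 held 2, while Cox6b2 held an SP1 match and no ETS match. Atp5md held an ETS and an SP1 match, and Atp5l, subunit g of the ATP synthase, an NRF1 and an ETS match. Ndufb11 and Uqcr10 held none of these letters in this window.

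A promoter was listed for 67 of the 82 members. The ETS core was present in 22 of them (32.8%), against 22.3% of the genes with a promoter that are on the arrays and 15.3% of all genes listed. By complex it was present in 7 of 32 members of complex I (21.9%), 1 of 3 of complex II, 2 of 5 of complex III, 3 of 12 of complex IV (25.0%) and 9 of 15 of complex V (60.0%). The NRF1 core was present in 7 members (10.4%), against 3.98% of the genes on the arrays, the SP1 core in 26 members (38.8%), against 53.5%, and the YY1 core in 1 member (1.49%), against 5.0%. Among the 26 members with a promoter that were lower at day 11 than at day 0 in Nos3-/- cells, 10 (38.5%) held the ETS core, against 12 (29.3%) of the other 41. Among the 16 that were higher in Nos3-/- iPSCs at day 0, 4 (25.0%) held it, against 18 (35.3%) of the other 51. These are counts of letters, not of bound sites.

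Levels are log2 intensities, on which a difference of 1 is a 2-fold difference in signal; a level of one gene cannot be set against that of another. Of the 82 members, 71 had a mean level of 10 or more over the 31 arrays, which 3270 of the 18194 genes reached. Nos3 itself averaged 6.88 ± 0.14 in Nos3-/- and 7.05 ± 0.21 in control embryoid bodies (SD, n = 6 and 9), and 6.98 ± 0.18 in Nos3-/- and 6.65 ± 0.24 in control iPSCs (SD, n = 6 and 10). Nos3 was thus called higher in the iPSCs labelled Nos3-/- (0.33, limma adjusted p = 0.0295) and was not called at day 11 (-0.17, 0.386). The labels do not place the probes relative to the deleted part of the gene, so this level does not check the allele. Nos3-/- day 11 replicate 3 had the lowest median correlation with its own group (0.9611), and Nos3-/- day 0 replicates 1, 3 and 5 and control day 11 replicate 1 also stood apart. Counts without these 5 arrays are given with each comparison. Counts from such changed fits stand without the share over all genes, so their moves may not be particular to the members.

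**Figure D1:**
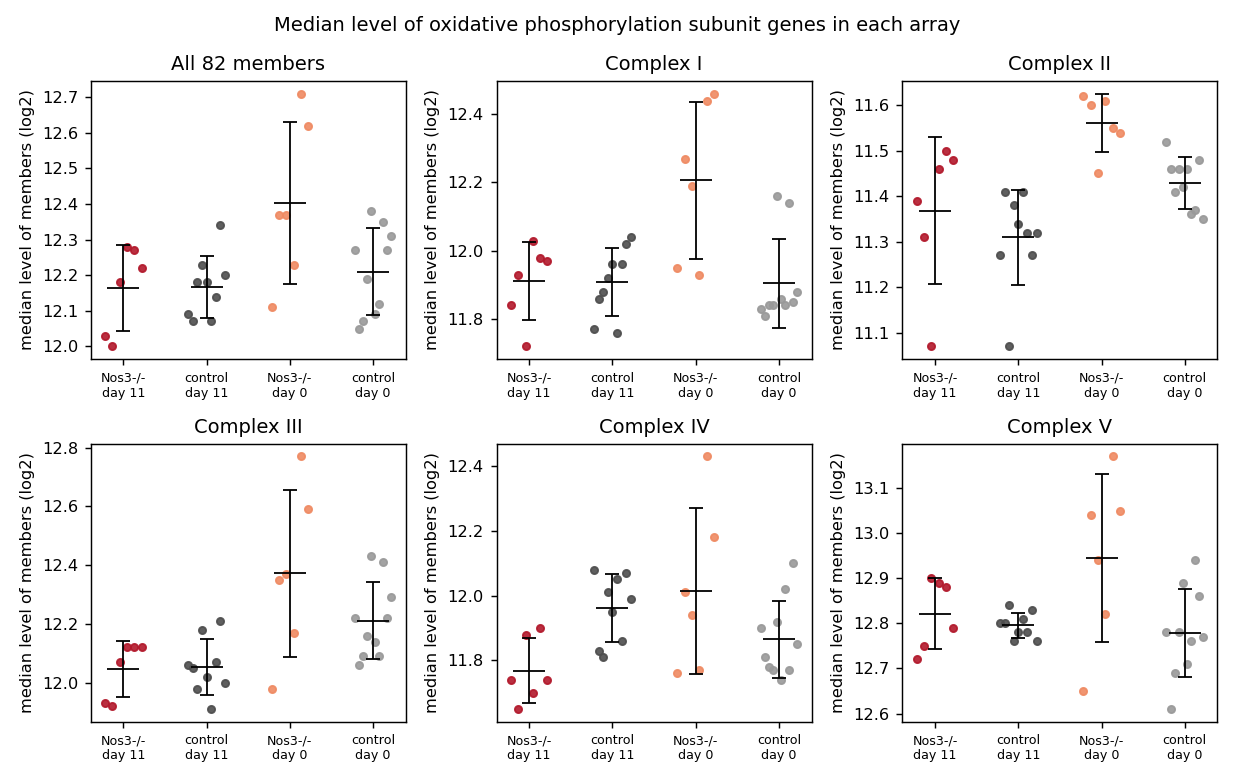
Median log2 level of the members of each complex in each array, by group, with the mean and SD of the group as a line and bars. Nos3-/- day 0 arrays hold the highest value of every complex, while the day 11 groups cover similar ranges, apart from complex IV. There the Nos3-/- mean is 11.77 and the control mean 11.96. On these arrays the complex IV median is the level of 1 gene, Cox7a2l. Cox7a2l was not called at day 11 (-0.19, limma adjusted p = 0.141). Over the 17 complex IV members the median day 11 difference was 0.04, with 9 positive and 8 negative.

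The first comparison asked how the subunit genes differed between undifferentiated Nos3-/- and control iPSCs. In Nos3-/- iPSCs 18 members were higher and 0 were lower at a limma adjusted p under 0.05. The 18 make up 22% of the 82 members, beside 9.17% of all genes tested called higher and 7.47% called lower. The calls fell on complex I (11 of 36), complex III (1 of 8), complex IV (3 of 17) and complex V (3 of 17), and on 0 of 4 in complex II. The differences were small and mostly of the same sign: 76 members (92.7%) had a positive one, beside 51.9% of all genes. The median was 0.15 over the members and 0.01 over all genes. An unadjusted p under 0.05 was reached by 41 of the 82 members and 5545 of all 18194 genes. Among genes with a mean level of 10 or more, 22.5% of the 71 members and 11.6% of the 3270 genes were called higher, and 93.0% and 50.2% had a positive difference.

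The median over the 82 members was 12.11, 12.37, 12.37, 12.23, 12.71 and 12.62 on Nos3-/- replicates 1 to 6, and 12.05 at the lowest, 12.23 in the middle and 12.38 at the highest on the 10 control arrays. Nos3-/- replicates 5 and 6 lay above all control arrays and replicates 1 to 4 lay within their range. The count rested on single arrays: 5 members were called without Nos3-/- replicate 5, 8 without replicate 2, 10 without replicate 6, 10 without control replicate 2, 10 without control replicate 3, and 40 without Nos3-/- replicate 1. Of the 18 calls, 4 (Ndufa12, Ndufv1, Uqcr10 and Atp5o) were kept whichever array was left out. For Ndufa12, Ndufv1 and Uqcr10 the probe sets differed in size or sign, as given below, which leaving out arrays cannot show. Without the 5 arrays that stood apart, 16 members were called higher and 0 lower. That fit kept only replicates 2, 4 and 6 of the Nos3-/- iPSCs. Calls over all genes were not set beside the counts with arrays left out, so their moves may not be particular to the members.

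In complex I, the called members included both catalytic and accessory subunits. Ndufv1, the flavin-binding subunit that takes the electrons from NADH, was 11.53 at the lowest, 11.76 in the middle and 12.03 at the highest in Nos3-/- iPSCs, and 11.13, 11.40 and 11.68 in control iPSCs. The Ndufv1 difference was 0.36 (SE 0.09, limma adjusted p = 0.00923), with 5 of the 6 Nos3-/- arrays above the highest control array. Ndufb2, an accessory subunit of the membrane arm, had 11.60, 12.25 and 12.77 in Nos3-/- iPSCs, against 11.43, 11.60 and 12.20 in control iPSCs. The upper 3 Nos3-/- arrays lay above all controls and the others among them, and the difference was 0.51 (SE 0.14, limma adjusted p = 0.0115). Ndufs4, an accessory subunit at the NADH-oxidizing tip whose loss is known to cause Leigh-like disease in mice, differed by 0.37 (SE 0.13), and Ndufb9, of the membrane arm, by 0.34 (SE 0.11). Their limma adjusted p were 0.048 and 0.0327.

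Ndufa12, a small accessory subunit, was the only member without overlap between the groups, beside 1.17% of all genes higher in this way. It lay between 11.96 and 12.70 in Nos3-/- iPSCs (median 12.32) and between 11.46 and 11.81 in control iPSCs (median 11.59), a difference of 0.72 (SE 0.08, limma adjusted p = 3.75e-07). This value comes from 1 of 4 Ndufa12 probe sets, and the others did not share it, as given with the probe sets below.

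In complex III, Uqcr10, a small membrane subunit, had 11.90, 12.48 and 12.89 (lowest, median, highest) in Nos3-/- iPSCs, against 11.60, 11.86 and 12.21 in control iPSCs. Of the 6 Nos3-/- arrays, 4 lay above all controls, and the difference was 0.58 (SE 0.11, limma adjusted p = 0.000595). In complex V, Atp5o, the stalk subunit that confers oligomycin sensitivity, had 12.52, 12.87 and 12.98 in Nos3-/- iPSCs and 12.39, 12.54 and 12.69 in control iPSCs. The Atp5o difference was 0.26 (SE 0.07, limma adjusted p = 0.00945). Atp5md, an accessory subunit, differed by 0.29 (SE 0.10, limma adjusted p = 0.0426).

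In complex II, which carries the succinate-oxidizing flavoprotein Sdha, the iron-sulfur protein Sdhb and the membrane anchors Sdhc and Sdhd, the day 0 differences were 0.12, 0.10, -0.13 and 0.26. Their limma adjusted p ran between 0.0525 (Sdhd) and 0.455 (Sdha), and for Sdhd the interval of the difference was 0.07 to 0.46.

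The feeder and cell identity markers moved beside these differences. The counts below stand beside 9.17% of all genes called higher and 7.47% called lower. Of 30 measured genes of the fibroblast and feeder list, 10 were lower in Nos3-/- iPSCs and 0 higher, with Col1a1 (collagen I) at -1.26 and Col5a2 (collagen V) at -1.24. The mean of this list lay between 9.86 and 10.68 in Nos3-/- iPSCs and between 10.10 and 11.46 in control iPSCs. Of 22 pluripotency genes, 6 were higher and 0 lower, with Fbxo15, a target of Oct4, at 2.56 and Dppa3 at 1.59. The mean of the pluripotency list lay between 9.07 and 11.54 in Nos3-/- iPSCs and between 9.72 and 11.11 in control iPSCs. Nos3-/- replicate 3, at 9.07, lay below all control arrays. When the mean of the fibroblast list was added as a covariate in a fit of the day 0 arrays, 1 member (Ndufa12, 0.62, limma adjusted p = 0.0148) of the 82 was called, with 231 genes in all, and the median over members was 0.05. A fit of the day 0 arrays without that covariate called 10 members. The covariate itself averaged 10.24 in Nos3-/- and 10.9 in control iPSCs, so this fit cannot separate the list from genotype. Within groups, its correlation (Pearson r) with the members' median was -0.28 over 6 Nos3-/- arrays and -0.71 over 10 control arrays. In bulk RNA, fewer cells of a type and less RNA per cell cannot be told apart.

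**Figure D2:**
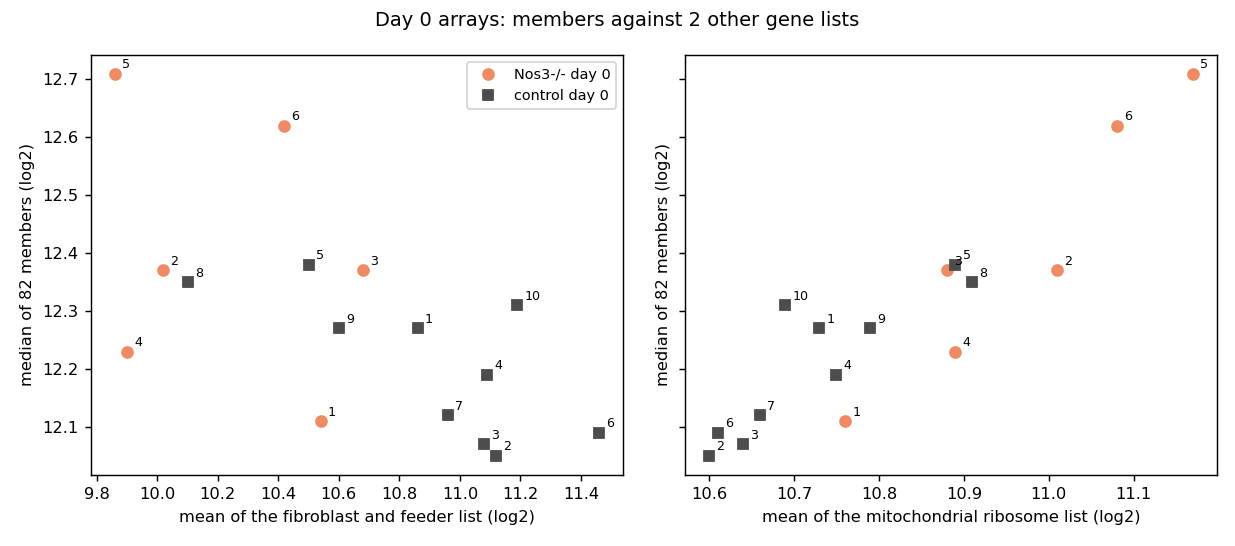
Each point is a day 0 array, numbered by replicate, with the median log2 level of the 82 members on the vertical axis and the mean log2 level of the fibroblast and feeder list (left) or the mitochondrial ribosome list (right) on the horizontal axis. Nos3-/- replicates 5 and 6 have the highest members' medians, 12.71 and 12.62, and the highest mitochondrial ribosome means, 11.17 and 11.08.

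Genes of the same organelle were also higher in part, where 9.17% of all genes were called higher and 7.47% lower. Of 76 mitochondrial ribosome proteins, which translate the subunits encoded by mitochondrial DNA, 28 were higher and 0 lower in Nos3-/- iPSCs, with Mrps24 at 0.77 and Mrpl15 at 0.71 and a median of 0.22. Of 47 assembly factors of the complexes, 16 were higher and 4 lower. Ndufaf6 (0.98) and Ndufaf2 (0.96), both needed to assemble complex I, were the highest, and Timmdc1, which serves the same assembly, was lowest at -0.58. Of 22 genes of electron carriers and nucleotide exchange, 6 were higher and 0 lower, with Coq8a (0.60) and Coq6 (0.50) of coenzyme Q synthesis at the top.

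Of 18 genes of the tricarboxylic acid cycle and pyruvate dehydrogenase, which feed electrons into the chain, 0 were called in either direction by limma. Their median was 0.02, and 5 had an unadjusted p under 0.05, beside 5545 of all 18194 genes. Of 17 regulators of mitochondrial biogenesis, 3 were higher and 1 lower. The 3 were Tfb1m, which modifies mitochondrial ribosomal RNA (1.03), Nrf1, nuclear respiratory factor (0.42), and Tfam, which packages mitochondrial DNA (0.29). Ppargc1b, a coactivator of respiratory genes, had -0.45. Of 16 hypoxia response genes 1 was higher and 2 lower; the higher one was Pdk1, the kinase that holds back pyruvate dehydrogenase (1.88). Of 20 genes of mitochondrial protein import, 2 were higher and 1 lower. The hypoxia and import counts were near the shares over all genes, 9.17% called higher and 7.47% called lower.

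**Figure D3:**
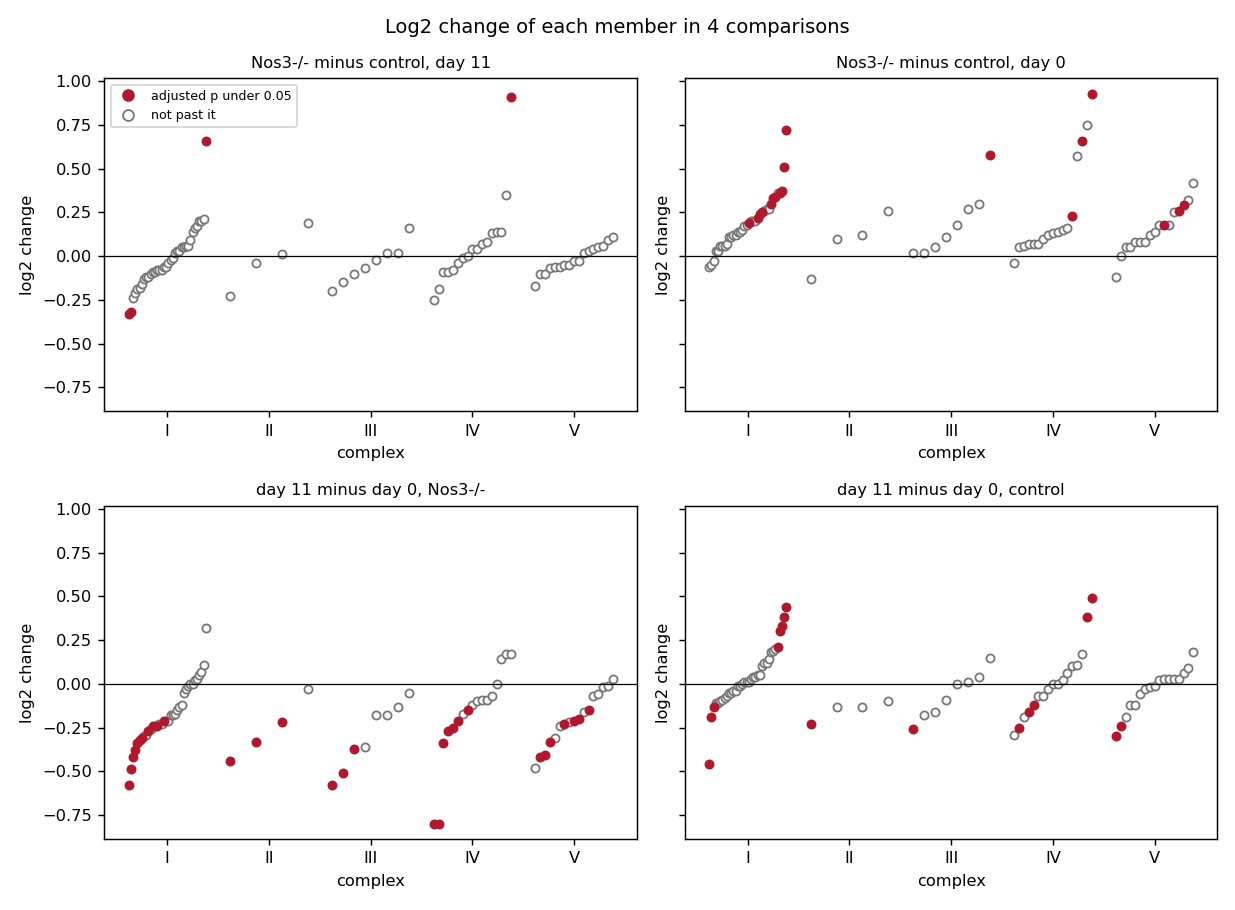
Log2 change of each member in 4 comparisons, with members ordered by change within each complex; filled points passed a limma adjusted p under 0.05. At day 0 the 18 filled points all lie above 0, over time in Nos3-/- cells the 31 filled points all lie below 0, and the other panels hold both signs.

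The second comparison asked the same of embryoid bodies at day 11. In Nos3-/- embryoid bodies 2 members were higher (Ndufa12 and Cox6b2) and 2 lower (Ndufb11 and Ndufs8), or 2.44% of the members each way, beside 4.41% of all genes called higher and 5.29% called lower. The median difference was -0.02 over the members and 0 over all genes. A positive difference was seen in 36 members (43.9%) and 50.1% of all genes, and a negative one in 46 members (56.1%) and 49.9%. All calls lay in complexes I and IV. No call was made in complexes II, III and V, where differences ran from -0.23 (Sdhc) to 0.19 (Sdha). In these, 1 complex II member and 1 complex V member had an unadjusted p under 0.05, beside 3919 of all 18194 genes. Without the 5 arrays that stood apart, 5 members were called higher and 2 lower. The share of all genes called in that fit was not set beside these counts.

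Ndufb11, an accessory subunit of the membrane arm of complex I encoded on the X chromosome, had 12.42, 12.52 and 12.59 (lowest, median, highest) in Nos3-/- embryoid bodies, against 12.70, 12.85 and 13.00 in control embryoid bodies. The groups did not overlap, and the difference was -0.33 (SE 0.07, limma adjusted p = 0.00165). Ndufs8, which carries iron-sulfur clusters toward the quinone site, had 11.81, 11.83 and 11.99 in Nos3-/- and 12.04, 12.19 and 12.42 in control embryoid bodies, also without overlap. Its difference was -0.32 (SE 0.08, limma adjusted p = 0.00795). Atp5h, a stalk subunit of complex V, was the third member below control without overlap, at -0.17, but it did not pass (limma adjusted p = 0.129). Of all genes, 1.44% were lower in Nos3-/- embryoid bodies without overlap and 1.16% higher.

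Ndufa12 and Cox6b2 were called higher on both days, which 3.72% of all genes were called in 1 direction. Ndufa12 lay between 12.30 and 12.49 in Nos3-/- and between 11.38 and 11.91 in control embryoid bodies, a difference of 0.66 (SE 0.08, limma adjusted p = 2.17e-06). Cox6b2, the testis isoform of subunit 6b, had 10.06, 10.35 and 10.77 in Nos3-/- embryoid bodies, against 8.74, 9.21 and 10.63 in control embryoid bodies, a difference of 0.91 (SE 0.25, limma adjusted p = 0.0173). Control replicates 1 (10.24) and 3 (10.63) reached into the Nos3-/- range and the other 7 control arrays lay below it. In iPSCs Cox6b2 had 9.54, 10.04 and 11.30 in Nos3-/-, against 8.92, 9.22 and 9.75 in control, a difference of 0.93 (SE 0.25, limma adjusted p = 0.0107). The day 11 Cox6b2 call was lost without Nos3-/- day 11 replicate 5 (0.82, adjusted p = 0.0555) and the day 0 call without Nos3-/- day 0 replicate 5 (0.71, adjusted p = 0.0599). Germline genes, a list that shares testis expression with Cox6b2, were higher in 5 of 14 at day 0, with Stag3 at 2.25 and Stk31 at 2.14. At day 11, 1 of 14 was higher (Stag3, 1.86). Of all genes, 9.17% were called higher at day 0 and 4.41% at day 11. On Nos3-/- replicate 3 the germline mean was 4.44 at day 0 and 4.10 at day 11. Both lay below all control arrays (4.58 to 6.40 and 4.42 to 5.80). The part of germline genes in the Cox6b2 difference was not tested.

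Cell identity also differed at day 11, where 4.41% of all genes were called higher and 5.29% lower. Of 15 yolk-sac and visceral endoderm genes, 10 were lower and 0 higher in Nos3-/- embryoid bodies, with Cubn at -4.15 and Afp at -3.84, and their mean lay between 5.81 and 7.06 in Nos3-/- and between 6.65 and 11.13 in control embryoid bodies. Of 30 fibroblast genes 11 were lower and 2 higher, and of 22 pluripotency genes 8 were higher and 0 lower. Of 23 cardiomyocyte genes, which encode the contractile apparatus of a tissue rich in mitochondria, 1 was lower (Ryr2, the calcium release channel, -1.29). Their mean ranged from 5.93 to 8.97 in Nos3-/- and from 7.10 to 9.69 in control embryoid bodies. With the fibroblast mean as a covariate in a fit of the day 11 arrays, 1 member was called, Ndufa12. Ndufb11 was then at -0.25 (adjusted p = 0.183), Ndufs8 at -0.19 (0.373) and Cox6b2 at 0.22 (0.807). The fibroblast mean averaged 8.89 in Nos3-/- and 9.74 in control embryoid bodies, so this fit too cannot separate the list from genotype.

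Among related lists, 3 of 76 mitochondrial ribosome proteins were higher and 1 lower at day 11, and 2 of 47 assembly factors were higher and 2 lower. These counts were no larger than the shares over all genes, 4.41% called higher and 5.29% called lower. Timmdc1 was lower at -1.03 and Ndufaf2 higher at 0.65, as on day 0, and Atpaf2, an assembly factor of the ATP synthase, was higher at 0.73. Fh1, the fumarase of the tricarboxylic acid cycle, was lower, at -0.32, as was Coq5, of coenzyme Q synthesis, at -0.44.

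**Figure D4:**
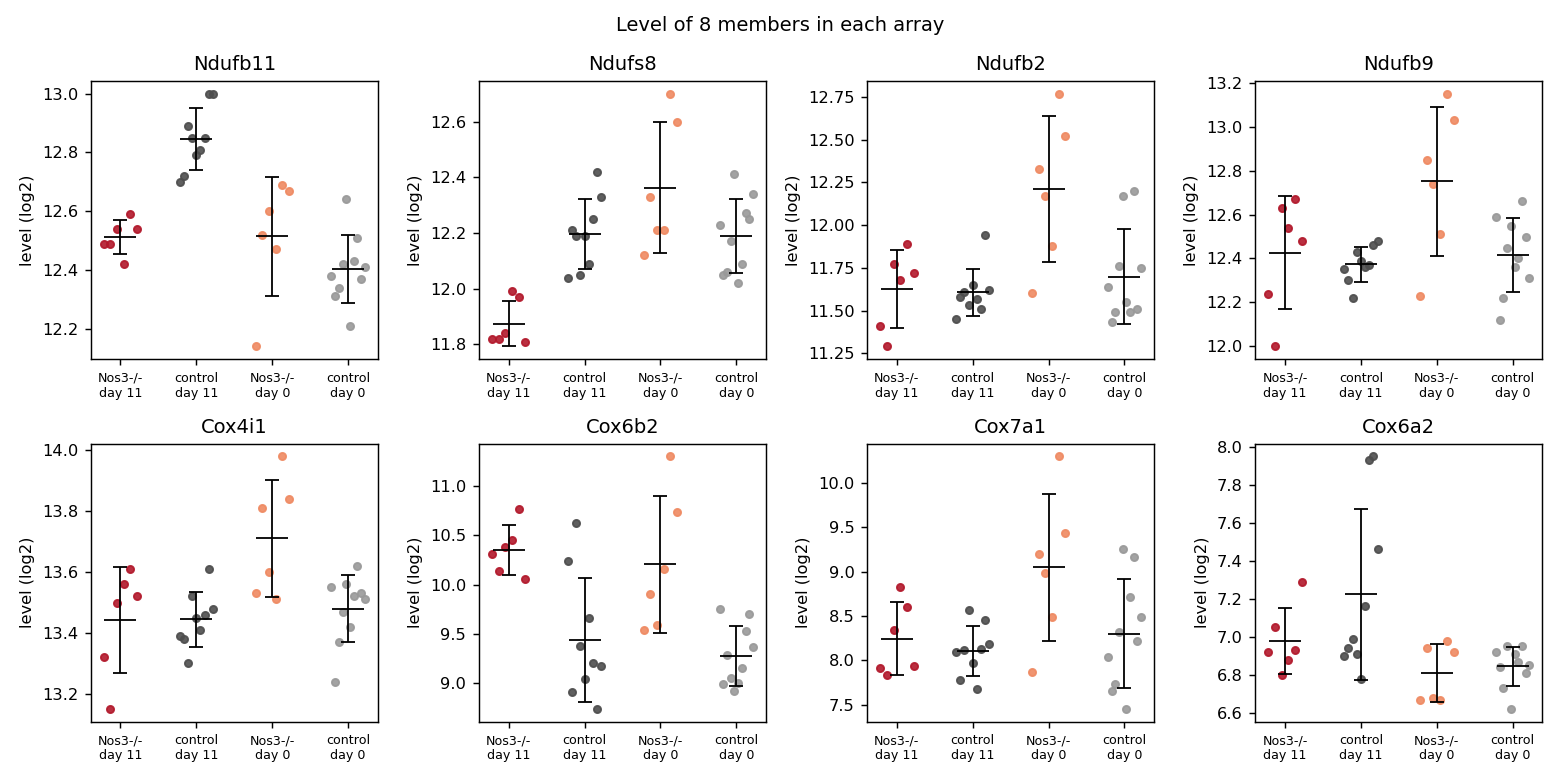
Log2 level of 8 members in each array, by group, with the mean and SD of the group as a line and bars. Ndufb11 is higher in control embryoid bodies (12.70 to 13.00) than in every other group's arrays (12.14 to 12.69), Ndufs8 is lowest in Nos3-/- embryoid bodies (11.81 to 11.99), and Cox6a2 reaches 7.95 in some control embryoid bodies.

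The third comparison followed Nos3-/- cells from iPSCs to embryoid bodies. At day 11, 31 members were lower than at day 0 and 0 were higher. The 31 make up 37.8% of the members, beside 18.1% of all genes called lower and 13% called higher. The calls comprised 11 of 36 in complex I, 3 of 4 in complex II, 3 of 8 in complex III, 7 of 17 in complex IV and 7 of 17 in complex V. Those of complex I include Ndufb4, near the low end of the array's range, with means of 3.62 in Nos3-/- embryoid bodies and 3.93 in Nos3-/- iPSCs. A negative change was seen in 70 members (85.4%) and 58.7% of all genes, with a median of -0.21 over the members and -0.06 over all genes. Among genes with a mean level of 10 or more, 39.4% of the members and 20.9% of all were called lower. This comparison and the first share the Nos3-/- day 0 arrays, so the values of the members in the 2 are not independent. An unadjusted p under 0.05 was reached by 45 members and 7614 of all 18194 genes.

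In complex III, Uqcr10 fell to 11.51, 11.93 and 12.05 (lowest, median, highest) in Nos3-/- embryoid bodies, a change of -0.58 (SE 0.12, limma adjusted p = 0.00075) against the Nos3-/- iPSC values given above. Uqcrq, the small subunit that lies beside cytochrome b, changed by -0.51 (SE 0.12) and Uqcr11 by -0.37 (SE 0.12). In complex I, Ndufb2 changed by -0.58 (SE 0.15), Ndufs8 by -0.49 (SE 0.09) and Ndufs5, an accessory subunit of the membrane arm, by -0.42 (SE 0.09). Ndufs8 (11.81 to 11.99 in Nos3-/- embryoid bodies, 12.12 to 12.70 in Nos3-/- iPSCs), Ndufb10 (-0.38) and Cox5a (-0.34), a structural subunit of cytochrome c oxidase, fell without overlap, beside 4.58% of all genes that fell and 3.25% that rose in this way.

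In complex II, Sdhd fell by 0.44, to 11.29, 11.49 and 11.87 in Nos3-/- embryoid bodies, against 11.58, 11.91 and 12.37 in Nos3-/- iPSCs (SE 0.11, limma adjusted p = 0.00244). Sdhc fell by 0.33 (SE 0.12) and Sdhb by 0.22 (SE 0.09, limma adjusted p = 0.0499), and Sdha had a change of -0.03 (SE 0.12) that did not pass. In complex V, Atp5l, Atp5g1 and Atp5o changed by -0.42, -0.41 and -0.33. Without the 5 arrays that stood apart, 28 members were lower and 0 higher. The count was 14 without Nos3-/- day 11 replicate 2, 20 without day 11 replicate 1, 15 without day 0 replicate 5, 16 without day 0 replicate 6, and 42 without day 0 replicate 1. A fit of the Nos3-/- arrays alone called 10, quantile normalization left 17 and centring each array on its median left 16, in each case with 0 higher. Shares over all genes were not set beside the counts of these changed fits, so their moves may not be particular to the members.

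Over the same interval, the fourth comparison showed both directions in control cells. Members that were higher at day 11 numbered 7 (8.54%), and 10 (12.2%) were lower, beside 16% of all genes called higher and 18.2% called lower. The median change was 0. Centring arrays on their median gave 10 higher and 4 lower, and quantile normalization 8 of each. Without control day 11 replicate 3 the count was 6 higher and 4 lower, and without the 5 arrays that stood apart it was 9 higher and 11 lower. For these changed fits the share of all genes was not set beside the counts.

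The higher members in control cells were Ndufb11, Ndufa5, Ndufa6, Ndufs7 and Ndufv3 of complex I and Cox6a2 and Cox7c of complex IV. Ndufb11 had 12.70 to 13.00 in control embryoid bodies, against 12.21 to 12.64 in control iPSCs, without overlap, a change of 0.44 (SE 0.06, limma adjusted p = 1.64e-06). Of all genes, 2.89% were higher without overlap. Ndufv3, a small subunit beside Ndufv1, changed by 0.38 (SE 0.10), Ndufa6 by 0.33 (SE 0.09), Ndufa5 by 0.30 (SE 0.08) and Ndufs7, which holds the last iron-sulfur cluster before quinone, by 0.21 (SE 0.07). Cox7c changed by 0.49 (SE 0.16, limma adjusted p = 0.0206).

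The lower members in control cells were Ndufa1, Ndufa8 and Ndufb1 of complex I, Sdhc, Uqcrq, Cox5a, Cox6a1, Cox8a, Atp5b and Atp5g1. Ndufb1, an accessory subunit, changed by -0.46 (SE 0.11), Atp5g1, one of 3 genes for the rotor ring subunit c, by -0.30 (SE 0.07) and Atp5b, the catalytic beta subunit, by -0.24 (SE 0.07). Ndufb1 has no second probe set and lay at 7.43 to 8.07 in control embryoid bodies and 7.84 to 8.52 in control iPSCs. Atp5g1 fell without overlap (11.53 to 11.78 in control embryoid bodies and 11.91 to 12.16 in control iPSCs), beside 3.63% of all genes. Of these 10 members, 9 (all but Ndufb1) were also lower in Nos3-/- cells, so 9 of the 82 members were called lower in both genotypes, beside 9.61% of all genes. The 9 make up 29% of the Nos3-/- calls and 90% of the control calls, where over all genes the shared calls make up 53% and 52.9%. Called higher in both genotypes were 0 members, beside 8.26% of all genes.

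Cell types changed along with time in both genotypes. Over all genes, 13% were called higher and 18.1% lower in Nos3-/- cells, and 16% and 18.2% in control cells. Cardiomyocyte genes were higher at day 11 in 12 of 23 in Nos3-/- and 19 of 23 in control cells, with 0 lower, and Tnnt2, cardiac troponin T, changed by 4.44 and 4.73. Yolk-sac genes were higher in 3 of 15 in Nos3-/- and 13 of 15 in control cells. Macrophage and mast cell genes, which mark cells that can accompany embryonic fibroblast feeders, were lower in 9 of 12 in each genotype, with Lyz2, lysozyme, changing by -6.55 and -6.12. Fibroblast genes were lower in 20 of 30 in Nos3-/- and 17 of 30 in control cells. The part of these cell types in the members' changes was not tested.

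The other mitochondrial lists moved over time as well. Their counts stand beside 13% of all genes called higher and 18.1% called lower in Nos3-/- cells. In control cells these shares were 16% and 18.2%. Mitochondrial ribosome proteins were lower at day 11 in 52 of 76 in Nos3-/- cells and 25 of 76 in control cells, with 0 and 1 higher; Mrpl1 changed by -1.04 in Nos3-/- cells and Mrps25 by -0.53 in control cells. Assembly factors were lower in 28 of 47 and 13 of 47, with 1 higher in each. Genes of the tricarboxylic acid cycle split, with 2 higher and 7 lower of 18 in Nos3-/- cells and 4 higher and 5 lower in control cells. Idh3a, an NAD-linked isocitrate dehydrogenase subunit, was lower in both (-0.50 and -0.49), and Suclg2, of succinyl-CoA ligase, was higher in both (0.33 and 0.34). Cyc1, cytochrome c1 of complex III, which the naming rule left outside the members, changed by -0.31 in Nos3-/- and -0.28 in control cells. Polg, the polymerase of mitochondrial DNA, rose by 0.78 and 0.94. Of 16 hypoxia response genes, 6 were higher and 1 lower in Nos3-/- cells and 9 higher and 1 lower in control cells.

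The change over time differed between the genotypes in 2 members, both of complex I and both more negative in Nos3-/- cells. For Ndufb11 the difference was -0.45 (SE 0.10, limma adjusted p = 0.0197): the change was 0.00 (SE 0.08) in Nos3-/- and 0.44 (SE 0.06) in control cells. For Ndufs8 it was -0.49 (SE 0.11, limma adjusted p = 0.024): the change was -0.49 (SE 0.09) in Nos3-/- and 0.01 (SE 0.07) in control cells. They make up 2.44% of the members, beside 0.715% of all genes called in this direction and 0.522% in the other. A negative difference was seen in 74 members (90.2%) and 53.5% of all genes, with medians of -0.20 and -0.02. An unadjusted p under 0.05 was reached by 26 members and 3085 of all 18194 genes. This difference equals the day 11 genotype difference minus the day 0 one. It uses the same Nos3-/- day 0 arrays, so its signs are not independent of the first comparison. The Ndufb11 call was lost without Nos3-/- day 0 replicate 5 (-0.41, adjusted p = 0.053). The Ndufs8 call was lost without that array (-0.43, adjusted p = 0.0578), and also without Nos3-/- day 0 replicate 6 (-0.45, adjusted p = 0.0583). It was also lost with probe sets averaged per gene and without those ending in _x_at and _s_at. Over all settings the Ndufs8 difference ran from -0.54 to -0.28, with a limma adjusted p up to 0.262. Without the 5 arrays that stood apart, 2 members were called.

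The isoform families of complex IV were read gene by gene. For subunit 4, the broadly expressed Cox4i1 averaged 13.71 ± 0.19 in Nos3-/- and 13.48 ± 0.11 in control iPSCs, a difference of 0.23 (limma adjusted p = 0.0293), and 13.44 ± 0.17 in Nos3-/- and 13.44 ± 0.09 in control embryoid bodies. The Cox4i1 change over time was -0.27 in Nos3-/- cells (limma adjusted p = 0.0142) and -0.03 in control cells (0.724). Cox4i2, the lung and hypoxia isoform, averaged 5.91 to 5.98 in all 4 groups and passed in no comparison.

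For subunit 6a, Cox6a1, the broad isoform, fell over time by 0.15 in Nos3-/- and 0.12 in control cells (limma adjusted p = 0.0417 and 0.0343). Cox6a2, the heart and muscle isoform, had 6.80, 6.92 and 7.29 in Nos3-/- embryoid bodies, against 6.78, 6.99 and 7.95 in control embryoid bodies. Control replicates 7, 8 and 9 (7.93, 7.95 and 7.46) were the highest, and the other 6 control arrays overlapped the Nos3-/- arrays. The same 3 arrays had the highest means of the cardiomyocyte list among control embryoid bodies (9.69, 9.02 and 8.67, the others 7.10 to 7.92); among Nos3-/- embryoid bodies replicate 6 was highest in both, with a list mean of 8.97 and Cox6a2 at 7.29. The part of cardiomyocytes in the Cox6a2 values was not tested. Cox6a2 rose over time in control cells by 0.38 (SE 0.12, limma adjusted p = 0.0155) and had a change of 0.17 (SE 0.15, adjusted p = 0.423) in Nos3-/- cells; tested against each other, the changes differed by -0.21 (adjusted p = 0.625).

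For subunit 7a, Cox7a1, the heart and muscle isoform, averaged 9.05 ± 0.83 in Nos3-/- and 8.30 ± 0.61 in control iPSCs, with a gap of 0.75 (limma adjusted p = 0.0595, above the threshold). In embryoid bodies it averaged 8.24 ± 0.41 in Nos3-/- and 8.11 ± 0.28 in control, and its fall over time of 0.80 in Nos3-/- cells passed (limma adjusted p = 0.0452). Of 14 skeletal muscle genes, 1 was higher (Mylpf, a fast myosin light chain, 2.25) and 1 lower (Myf5, -0.21) in Nos3-/- iPSCs. Over time in Nos3-/- cells 0 rose and 3 fell, with Mylpf at -1.42. Of all genes, 9.17% were called higher and 7.47% lower at day 0, and 13% and 18.1% over time in Nos3-/- cells. The part of skeletal muscle genes in the Cox7a1 values was not tested. Cox7a2, the broad isoform, passed in no comparison, with a day 0 difference of 0.14 and changes over time of -0.17 and 0.00. Cox7a2l, which joins complexes III and IV into supercomplexes, fell over time by 0.25 in Nos3-/- cells (limma adjusted p = 0.0328) and had a change of 0.10 in control cells (0.311).

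Cox6b1, the partner of Cox6b2, passed in no comparison, with differences of 0.10 at day 0 and -0.09 at day 11. Cox7b2, the testis isoform of subunit 7b, was near the low end of the array's range, at 4.95 ± 0.63 in Nos3-/- and 4.37 ± 0.34 in control iPSCs, and fell over time by 0.80 in Nos3-/- cells (limma adjusted p = 0.00952). Cox8a fell over time by 0.21 in Nos3-/- and 0.16 in control cells, while Cox8b, typical of heart and muscle, and Cox8c, typical of testis, passed in no comparison. Cox7c, which has no listed partner, averaged 9.00 ± 0.30 in Nos3-/- and 8.33 ± 0.51 in control iPSCs, a difference of 0.66 (limma adjusted p = 0.0137). Ndufa4 and its hypoxia-inducible paralog Ndufa4l2 passed in no comparison. Of the 3 genes for subunit c, Atp5g1 fell over time in both genotypes, by 0.41 in Nos3-/- and 0.30 in control cells, and Atp5g2 and Atp5g3 passed in no comparison.

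Each member is represented by 1 probe set, and 49 of the 82 have others, which were fitted separately over all 34958 probe sets with 1 symbol. Another probe set with a mean of 10 or more over the 31 arrays existed for 9 of the 18 members called at day 0, 3 of the 4 called at day 11, 12 of the 31 called over time in Nos3-/- cells and 6 of the 17 called over time in control cells; the other calls had no such second reading. Of these probe sets, 10 of 11 at day 0, 6 of 8 at day 11, 17 of 17 over time in Nos3-/- cells and 8 of 8 over time in control cells had the sign of the called one. The 3 readings of opposite sign, 1 at day 0 and 2 at day 11, were all of Ndufa12. The members Uqcr10, Ndufv1 and Ndufa12 departed from this in size or sign.

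For Uqcr10, probe set 1434340_at had 8.43, 9.01 and 9.71 (lowest, median, highest) in Nos3-/- embryoid bodies, against 4.90, 5.02 and 5.37 in control embryoid bodies. In iPSCs it had 8.95, 9.85 and 11.20 in Nos3-/-, against 4.76, 5.24 and 7.44 in control, where replicate 1 was the highest and the next array was at 5.68. The groups did not overlap on either day, and the fitted differences were 3.96 (SE 0.31) at day 11 and 4.53 (SE 0.30) at day 0. Apart from replicate 1 at day 0, the control values lie below the median of every array and were not shown to be above background, so the size of these differences is not exact. Probe set 1434341_x_at differed by 2.85 and 3.32, also without overlap, whereas the probe set used above, 1424364_a_at, differed by 0.16 and 0.58. The 3 probe sets carry the same symbol and probe positions were not used here, so the cause of their difference was not tested.

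For Ndufv1, probe set 1415966_a_at differed by 1.25 (SE 0.10) at day 11, with 10.67 to 11.44 in Nos3-/- and 9.86 to 10.16 in control embryoid bodies, and by 1.08 (SE 0.10) at day 0, with no overlap on either day. Probe set 1415967_at differed by 0.06 and 0.15, and the one used, 1456015_x_at, by 0.17 and 0.36. For Ndufa12 the order was the other way round: the probe set used, 1455806_x_at, differed by 0.66 and 0.72, while 1433513_x_at differed by -0.06 and 0.14, 1418814_s_at by -0.20 and -0.13 and 1425919_at by -0.13 and 0.01, none of them called. The size of the Ndufa12, Ndufv1 and Uqcr10 genotype differences therefore rests on the choice of probe set.

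For Ndufb11, whose genotype difference was called at day 11, all 3 probe sets were lower in Nos3-/- embryoid bodies, at -0.33, -0.30 and -0.21, and the last did not pass (adjusted p = 0.057). All 3 were higher over time in control cells, by 0.44, 0.42 and 0.33. For Ndufs8, all 6 probe sets fell over time in Nos3-/- cells, by between 0.31 and 0.66, and 2 of the 6 were called lower in Nos3-/- embryoid bodies (-0.32 each), while the other 4 were at -0.14 to -0.03.

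**Figure D5:**
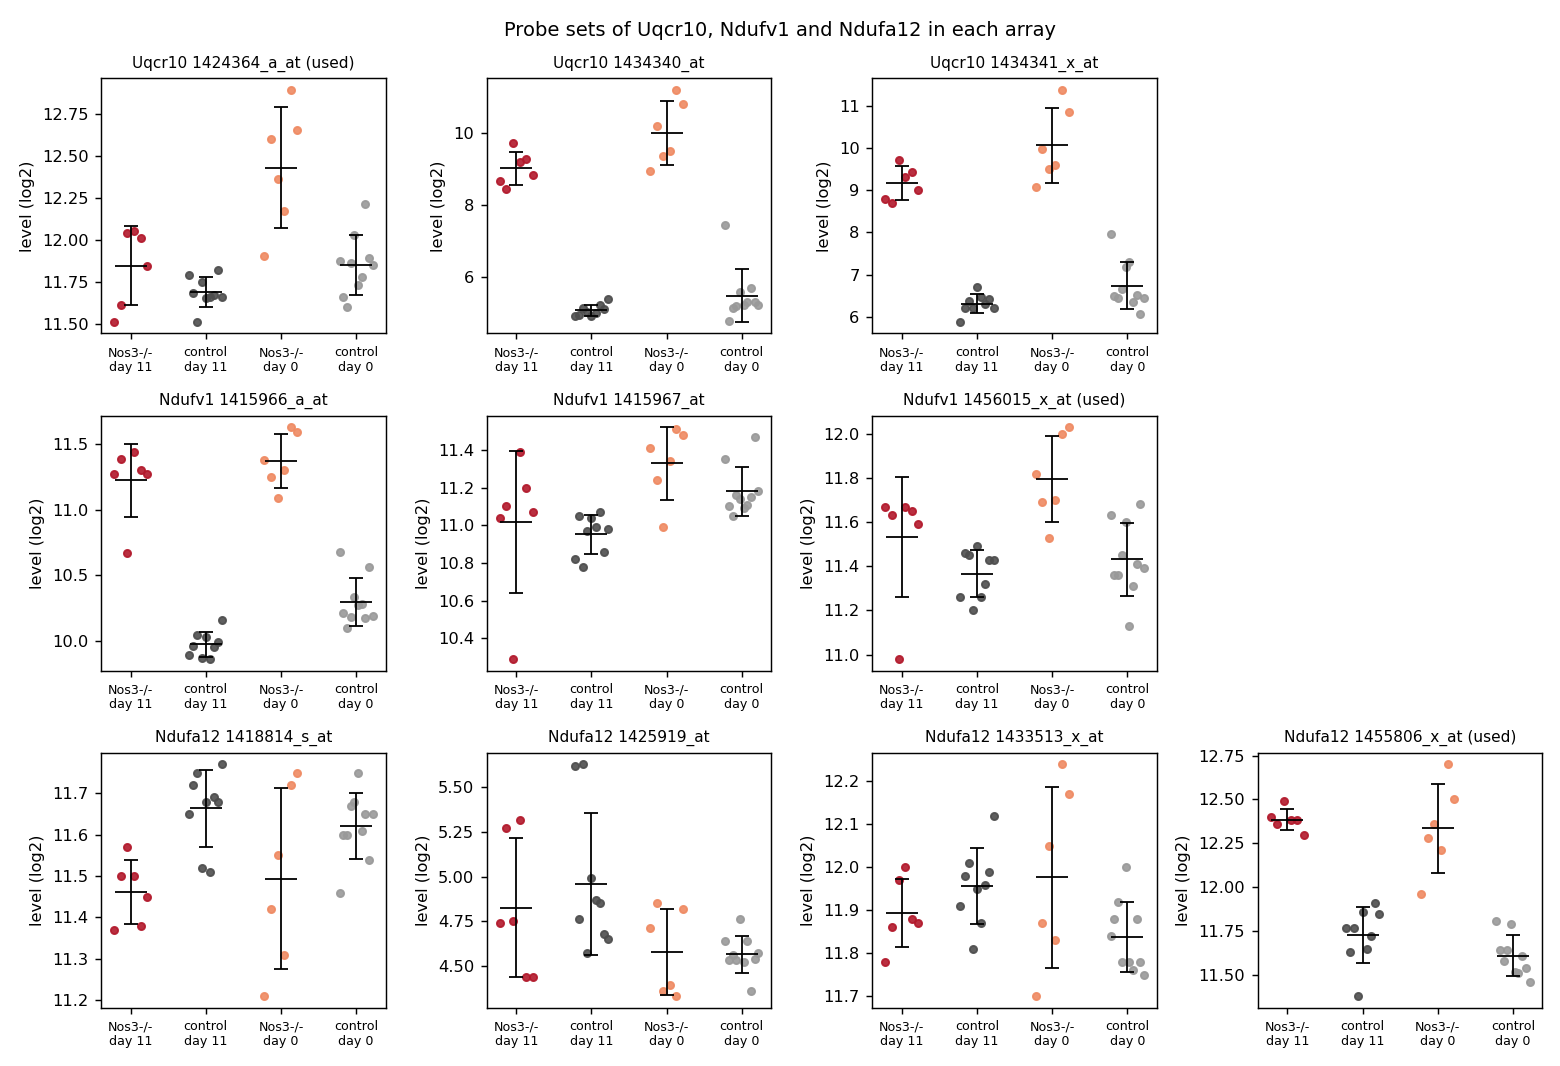
Log2 level of every probe set of Uqcr10, Ndufv1 and Ndufa12 in each array, by group, with the mean and SD of the group as a line and bars; the probe set that represents the gene is marked as used. The Uqcr10 probe set 1434340_at separates the genotypes by 3.96 at day 11 and 4.53 at day 0, and the probe sets of a gene do not share 1 genotype difference.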

How the data were processed

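RNA of 31 samples was hybridized to Affymetrix arrays, 1 array per sample, as biotinylated cRNA from 100 ng of total RNA, per the labels' protocols. The deposited values are log2 intensities that the authors summarized with RMA, per the submitters' processing notes; software version and batches are not given in the sources used here. Values ran from 2.32 to 15.01. The number of arrays limits the precision.

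Symbols came from the platform's annotation table. Of 45101 probe sets, 34958 carried 1 symbol, 932 several and 9211 none. For each of 18194 genes the probe set brightest on average across the arrays was used, and all 82 members were matched by gene ID to a GRCm38.p6 gene table. One mean per group was fitted to the deposited values with limma 3.58.1 in R 4.3.3, with an empirical Bayes variance (residual df 27, prior df 2.8). In all, 5 contrasts were drawn from it, namely genotype at each age, age in each genotype, and their interaction. A gene was called at a Benjamini-Hochberg adjusted p under 0.05 over all genes; intervals are at 95 percent. The fit was run on simulated data with noise independent between genes and arrays. That run cannot show how shifts shared by the genes of an array affect the calls.

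The text names all members of isoform families and of complex II, the called members at either end of each comparison and complex, Nos3, Cyc1, and called genes at either end of each list. Members at either end of the mean level were left unnamed, since levels of different probe sets cannot be compared. Ndufa1, Ndufa8, Ndufb4, Tfam and the Atp5o change over time in Nos3-/- cells were named after their values were seen. The members, gene lists and tests were chosen with earlier results of these data known. Same-numbered arrays of different groups correlated between -0.27 and 0.35 in their deviations from the group means and were not treated as pairs. Alternatives covered scaling, filters, probe set choice, variance model, arrays fitted, replicate block, a fibroblast covariate and each array left out; leaving out the arrays that stand apart and fitting each probe set were added after seeing the data.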

Additional observations from a re-analysis of the deposited data

Results flagged for a closer look

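Levels in 92 groups of arrays were examined for a sample far from the others, and 4 (4.35%) held one; chance alone gives about 1 in 20. The median of complex II was 11.07 on control day 11 replicate 3, Ndufb2 was 11.94 on control day 11 replicate 8, Ndufv1 was 10.98 on Nos3-/- day 11 replicate 3, and Cox7c was 8.91 on Nos3-/- day 11 replicate 6. Nos3-/- day 11 replicate 3 is also the array with the lowest correlation with its group.

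The change over time differed between the genotypes for Ndufb11 (-0.45) and Ndufs8 (-0.49), by the test of the difference itself (limma adjusted p = 0.0197 and 0.024). The Ndufs8 call rested on the choice of probe set: it was lost with probe sets averaged and without those ending in _x_at and _s_at.

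Probe sets that do not represent their gene in the comparisons separated the genotypes without overlap. Probe set 1434340_at of Uqcr10 differed by 3.96 at day 11 and 4.53 at day 0, 1434341_x_at of Uqcr10 by 2.85 and 3.32, and 1415966_a_at of Ndufv1 by 1.25 and 1.08. Probe set 1444874_at of Atp5g1 lay between 3.87 and 4.43 in Nos3-/- and between 3.39 and 3.81 in control embryoid bodies; the fitted difference of 0.43 is between levels below every array median that were not shown to be above background. The same holds for most control values of 1434340_at.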

How the results depend on the processing

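The day 0 median difference of the members, 0.15, fell to 0.05 with the fibroblast covariate and lay between 0.14 and 0.19 under the other settings apart from single arrays left out (0.13 to 0.20). Over time in Nos3-/- cells it was -0.21, and -0.14 with quantile normalization. All genes called were set beside the members only for the main fit and the day 0 fibroblast covariate. Moves in the counts below are therefore not compared with those over all genes. Counts of called members moved by more than 1.5 times in these cases. At day 0 the 18 calls became 34 with arrays centred on their median, 10 when only day 0 arrays entered the fit and 1 with the fibroblast covariate. At day 11 the 4 calls became 2 without the probe sets ending in _x_at and _s_at, 15 with array weights (7 higher and 8 lower), 1 with the fibroblast covariate and 7 without the 5 arrays that stand apart, and centring gave 4 higher and 2 lower. Over time in Nos3-/- cells the 31 calls became 17 with quantile normalization, 16 with centring and 10 when only those arrays entered the fit. The 2 differences between genotypes over time became 1 with probe sets averaged per gene, 1 without the _x_at and _s_at probe sets and 9 with array weights. In the 2 settings that left 1, Ndufs8 was the call lost. The Ndufa12 difference at day 11 turned to -0.13 (adjusted p = 0.707) without the _x_at and _s_at probe sets, a setting that replaces its probe set by another. The cause of the other moves was not tested.

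With each array left out in turn, the counts ranged from 5 to 40 at day 0, 4 to 6 at day 11, 14 to 42 over time in Nos3-/- cells, 10 to 19 over time in control cells and 0 to 3 for the difference between these; the arrays responsible are named with each comparison. In all 31 omissions 4 of 18, 3 of 4, 13 of 31, 10 of 17 and 0 of 2 calls were kept. The replicate block gave 16 calls at day 0, 3 at day 11, 31 over time in Nos3-/- cells, 15 over time in control cells and 2 for the difference; the Cox6b2 calls were lost under it (adjusted p = 0.0521 at day 0 and 0.0809 at day 11). The SD of the array medians of the members within groups was 0.15, as large as the day 0 median difference, so steadiness of that median cannot be judged against it.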
